A study of Mus musculus with 9 samples.

Results

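The cytosolic ribosomal protein genes were taken as all non-control probes whose gene name is Rpl or Rps followed by a digit, or Rplp0, Rplp1, Rplp2 or Rpsa, with the S6 kinase genes (names starting with Rps6k) left out. The rule found 86 of 27398 gene names on the array, measured by 143 of its 41174 probes, and used no measured value. The cells were pro-B cells transformed with the Abelson virus (A-MuLV), of genotype Ebf1fl/fl;RERTCre and C57Bl/6 background, in which 4-hydroxytamoxifen at 2 µM activates Cre to delete the endogenous Ebf1 gene. All 3 groups received the drug, and each was read on 3 one-colour arrays. EBF1ΔC cells carried the retroviral construct pmys-EBF1ΔC-IRES-GFP, named for EBF1 without its C-terminal domain, and EBF1wt cells carried pmys-EBF1wt-IRES-GFP. Both were treated 24 h after transduction, sorted as GFP+ at day 5 of treatment and used over 2 weeks later, so these groups descend from cells that lived on with the introduced EBF1. Mock cells were mock-transduced and were harvested 4 days after the drug, before cell death was seen, so they differ from both EBF1 groups in time in culture and in sorting as well as in EBF1. Nothing in the labels tells separate cultures from repeat samples of a single culture, so p-values here measure the spread between these samples, which may be technical.

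EBF1 is a transcription factor that pro-B cells need for their identity and survival. Ribosomal proteins assemble with ribosomal RNA into the small subunit, which reads the mRNA, and the large subunit, which joins amino acids and carries the P-stalk that recruits translation factors. Their mRNAs are among the most abundant of growing cells, are used as a reference in many expression assays, and carry a pyrimidine tract at the 5′ end through which mTORC1 controls their translation rather than their level. A few members have paralogs with restricted use, such as Rpl22l1, the paralog of Rpl22, and some act outside the ribosome, such as Rpl5 and Rpl11, which bind the p53 inhibitor MDM2.

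Most probes of these genes were designed on RefSeq mRNAs (123), and 20 on cDNA clones, expressed sequence tags or Ensembl transcripts. This matters for the results, because probes of the same gene, some of them of different design, gave different answers. The set below shows probes on which that contrast turns. Both sides are given for Rps28, Rps24 and Rpl22l1, and only the clone- or Ensembl-designed probe for Rpl11, Rps13 and Rplp2. Each probe is 60 bases, in the orientation deposited, with positions on mm9 (NCBI37) as the files give them, and capitals mark TAA, TAG and TGA in any frame. The Rps28 and Rps24 entries begin with the RefSeq-designed probe, then the Ensembl- or clone-designed one.
Rps28 A_52_P232909, chr17:33960183-33960242, minus strand: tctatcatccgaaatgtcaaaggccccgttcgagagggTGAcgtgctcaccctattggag
Rps28 A_52_P682465, chr17:33960065-33960124, minus strand: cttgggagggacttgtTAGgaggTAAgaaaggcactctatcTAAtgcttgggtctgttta
Rps24 A_51_P312936, chr14:25311322-25312647, plus strand, a split position: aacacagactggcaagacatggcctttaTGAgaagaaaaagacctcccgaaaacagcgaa
Rps24 A_52_P100002, chr14:25314669-25314728, plus strand: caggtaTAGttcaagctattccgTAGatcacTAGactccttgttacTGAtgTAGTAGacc
Rpl11 A_52_P566208, chr4:135605957-135606016, minus strand: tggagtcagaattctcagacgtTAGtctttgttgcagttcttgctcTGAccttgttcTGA
Rps13 A_52_P646112, chr7:123475113-123475172, minus strand: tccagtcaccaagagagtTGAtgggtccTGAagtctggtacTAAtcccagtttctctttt
Rplp2 A_52_P642947, chr7:148634747-148634806, plus strand: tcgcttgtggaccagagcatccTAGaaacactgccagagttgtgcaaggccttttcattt
Rpl22l1 A_51_P218814, RefSeq-designed, chr3:28706197-28706256, plus strand: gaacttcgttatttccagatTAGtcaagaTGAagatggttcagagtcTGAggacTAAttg
Rpl22l1 A_52_P65897, clone-designed, chr3:28704541-28704600, plus strand: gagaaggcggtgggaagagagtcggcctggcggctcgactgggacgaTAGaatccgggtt
The clone-designed probes of Rps24 and Rps13 shown here have 0 reading frames free of those triplets. The Rpl11 clone-designed probe lies within the 323-base genomic span (chr4:135605885-135606207) that the spliced RefSeq-designed Rpl11 probe A_51_P394524 bridges. Likewise, Rps28 A_52_P682465 lies within the 140 bases (chr17:33960041-33960180) bridged by the spliced probe A_51_P335671. No mm9 gene annotation was used, so exon, intron or UTR is not assigned. The positions of the Rps27, Rps29 and Rps19-ps4 probes are on another chromosome than the RefSeq table (GRCm38.p6) gives for these genes, and 3 probes have no position.

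Of the 143 probes, 138 (83 genes) were kept because at least 1 group had them well above background on each of its 3 arrays. On all 9 arrays 137 of them were well above background. The 5 probes not kept were below that level on all 9 arrays: both probes of Rpl39l, the paralog of Rpl39, and the probes of Rpl3l (in muscle the paralog of Rpl3), of Rps4y2 and an extra clone-designed one of Rps2. Rpl10l, Rpl26l1 and Rps4l are not on this array. Rps19bp1 and Rps19-ps4 match the rule without being subunits, since the first encodes a protein that binds Rps19 and the second is a pseudogene.

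The ribosomal protein genes were among the brightest on every array. On the log2 scale, with each array's 75th percentile as 0, which holds for all values here, the median level of the 138 kept probes was 8.03 (from -4.66 to 9.78), against -0.42 for all 22357 kept probes. They were 102 of the 464 probes with a mean of at least 6. All 143 together gave 21%, 21.7% and 20.7% of the summed signal in the 3 EBF1ΔC samples, 20.4%, 19.5% and 21.5% in EBF1wt, and 20.9%, 22.2% and 22.1% in Mock. The 3 groups overlapped in this share. No member spot was saturated. Precision was high: the median replicate SD was 0.10 for these probes, against 0.15 for all kept probes, and the 10 spots of Rplp0 A_51_P344103 varied within an array by a coefficient of variation between 1.83% and 5.84%.

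The arrays were alike at the 75th percentile of the intensity (between 384 and 507.7) but less so at the median. The median intensity was 14.13 to 22.74 in the EBF1 groups and 21.62 to 25.56 in Mock. Of all probes, 50.8% to 53.4% were well above background in the EBF1 groups and 54.3% to 56.9% in Mock. Mock was scanned on another day and on other slides than both EBF1 groups, so scan day and slide cannot be told apart from Mock, while slides 4 and 5 each held 1 EBF1ΔC and 1 EBF1wt array. As to the pro-B label, 9 of 9 pro-B markers were well above background in every group, with a summed log2 level of 9.42 to 9.52 in EBF1ΔC, 9.50 to 9.59 in EBF1wt and 7.32 to 7.36 in Mock. Of 5 T-cell markers, 2 were well above background on all arrays of each group, while Cd4 and Cd8a were below it on all arrays, as was Mpo (myeloid cells). The summed T-cell level was 0.42 to 0.66 in EBF1ΔC, -0.27 to -0.03 in EBF1wt and 0.30 to 0.41 in Mock. Summed mature B markers were 4.78 to 4.81, 4.18 to 4.51 and 7.32 to 7.45, erythroid markers 1.27 to 2.41, 1.72 to 2.45 and 8.43 to 8.67, and myeloid markers (1 of 5 well above background on all arrays of each group) 2.98 to 3.95, -1.05 to 1.44 and -1.34 to -0.91, in that order of groups. The part of these markers, and of the cells they mark, in the differences from Mock below was not tested, and in bulk RNA a change in the share of cells and one in RNA per cell cannot be told apart.

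Whether removal of the C-terminal domain changed the ribosomal protein mRNAs was asked by comparing EBF1ΔC with EBF1wt. Of 138 probes 2 were called by limma at a Benjamini-Hochberg adjusted p under 0.05 over all kept probes (1.45%), against 5.5% of all kept probes. The call was higher for 1 probe and lower for 1 (2.67% and 2.83% of all kept probes), and 0 differed by at least 2-fold as well, against 1.97%. Of the 464 probes with a mean of at least 6, 0 of the 102 ribosomal protein probes were called, near the 1.08% of all 464. None of the 119 RefSeq-designed probes was called, nor any of the 77 subunit genes when each was represented by its brightest probe, where 6.35% of all gene names were called. The median difference was 0.02, against 0 for all kept probes, and the median size of the difference 0.09 against 0.15. At a mean of at least 6 that size was 0.07 for the 102 of the family, against 0.09 for all 464. For 133 of the 138 probes (96.4%) the 95% confidence interval lay within 2-fold either way, and for 123 (89.1%) within 1.5-fold, against 86.2% and 65.4% of all kept probes and 99.4% and 94% of the 464 bright ones. Within slides 4 and 5 the medians were -0.04 and -0.03. The plot of the distributions shows the narrow peak of the family against the wider one of all probes.

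**Figure D1:**
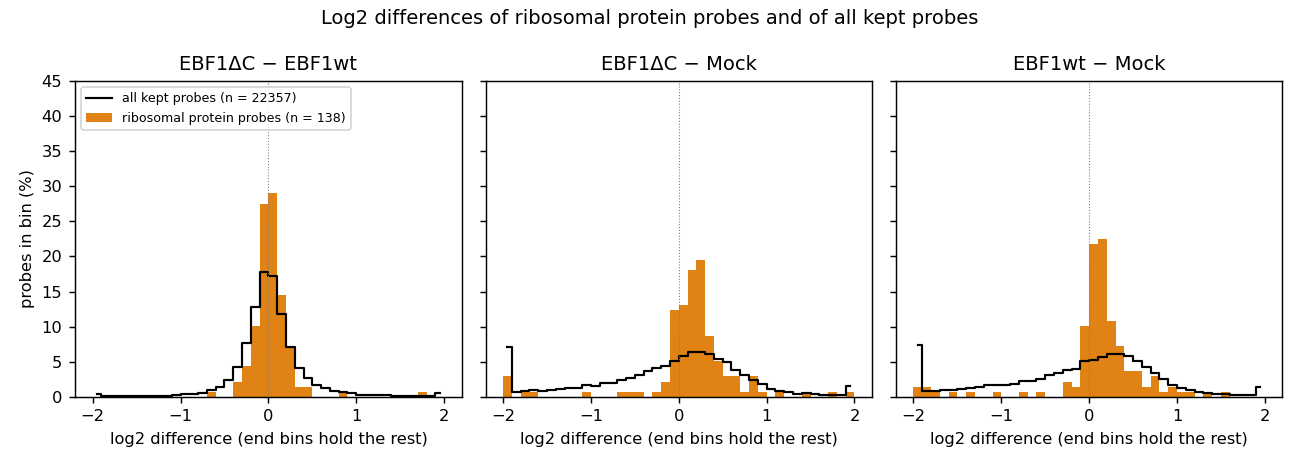
Log2 differences (x axis, bins of 0.1, end bins hold all values beyond) of the 138 kept ribosomal protein probes (bars) and of all 22357 kept probes (line), as percent of each set, for EBF1ΔC minus EBF1wt, EBF1ΔC minus Mock and EBF1wt minus Mock. In each panel the ribosomal protein probes peak near 0 and spread less than all probes.

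The 2 probes called between the EBF1 forms were neither RefSeq-designed nor bright. The clone-designed Rps6 probe read -3.34, -3.38 and -3.27 in EBF1ΔC, and -4.31, -4.29 and -3.99 in EBF1wt, with no overlap (0.87 ± 0.11 SE, limma adjusted p = 0.00465). The RefSeq-designed Rps6 probe read 7.65, 7.78 and 7.52 in EBF1ΔC, and 7.55, 7.82 and 7.61 in EBF1wt, which overlapped (-0.01 ± 0.11, adjusted p = 0.971). The clone-designed probe lies at chr4:86483199-86483258 and the RefSeq-designed one at chr4:86501886-86502077, both on the minus strand. Whether the clone-designed probe reads the Rps6 mRNA was not tested. Rps6 encodes the small subunit protein that the S6 kinases phosphorylate. The Ensembl-designed Rplp2 probe A_52_P642947 read -2.56, -2.24 and -2.49 in EBF1ΔC, and -1.90, -1.71 and -1.84 in EBF1wt (-0.61 ± 0.13, adjusted p = 0.0347). The RefSeq-designed probe of Rplp2, a P-stalk protein, differed by 0.06 ± 0.13 (adjusted p = 0.843). Within slides 4 and 5 the Rps6 probe differed by 1.02 and 0.65 and the Rplp2 probe by -0.78 and -0.72. With slide as a block, neither was called, but that fit called only 0.344% of all kept probes, against 5.5% in the main fit. Under normexp background correction with quantile normalization the Rps6 difference was 0.17 and the Rplp2 difference -0.37, and neither was called. The Rplp2 call was also lost without any single EBF1 array other than EBF1ΔC replicate 2, with differences between -0.65 and -0.55, and without Mock replicate 2, which enters only through the shared spread. Against Mock, the clone-designed Rps6 probe rose by 1.11 ± 0.11 in EBF1ΔC (limma adjusted p = 7.01e-05) and was not called in EBF1wt (0.24 ± 0.11).

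Both EBF1 groups were then set against Mock. Across the arrays this was a wide contrast: 64.5% of all kept probes were called between EBF1ΔC and Mock and 66.7% between EBF1wt and Mock. The ribosomal protein probes were called less often, 59 of 138 (42.8%; 49 higher, 10 lower) in EBF1ΔC and 48 of 138 (34.8%; 38 higher, 10 lower) in EBF1wt. The EBF1ΔC count was 38 without EBF1ΔC replicate 2 and 39 without Mock replicate 3. Over all kept probes 33.8% were higher and 30.7% lower in EBF1ΔC, and 35.2% and 31.6% in EBF1wt. A difference of at least 2-fold was found for 10 probes in each (4 higher, 6 lower; 7.25%), against 22.3% and 23.4% of all kept probes. Among the 464 brightest probes, 33 of the 102 ribosomal protein probes (32.4%) were called in EBF1ΔC and 24 of 102 (23.5%) in EBF1wt, against 57.3% and 53.2% of all 464. The median size of the difference was 0.22 and 0.16, against 0.49 and 0.52 for all kept probes. At a mean of at least 6 it was 0.17 and 0.12 for the 102 of the family, against 0.31 and 0.28 for all 464. For 119 of 138 probes in each comparison the 95% interval lay within 2-fold (86.2%), against 61.8% and 60.7% of all kept probes and 83.4% and 86.6% of the 464 bright ones. Both comparisons use the same 3 Mock arrays. That the family was called less often depended on the scaling. Scaled to the array median, 127 of 138 were called in EBF1ΔC and 132 in EBF1wt, against 70.7% and 76% of all kept probes.

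The family as a whole read slightly higher than Mock under the 75th-percentile scaling, by a median of 0.16 in EBF1ΔC and 0.12 in EBF1wt, against 0.04 for all kept probes in both. It did not exceed probes of like brightness. Among probes with a mean of at least 6, the 102 of the family had medians of 0.17 and 0.11, against 0.28 and 0.25 for all 464. The median over members per array was 8.09, 8.15 and 7.99 in EBF1ΔC, 8.05, 8.02 and 8.20 in EBF1wt, and 7.90, 7.95 and 7.87 in Mock, so no Mock array reached an EBF1 array. The sign depended on the scaling. With quantile normalization the medians were -0.05 and -0.04, with 19 probes higher and 23 lower in EBF1ΔC and 22 higher and 16 lower in EBF1wt. Scaling each array to its median gave 0.71 and 0.82, where the median of all kept probes itself moved to 0.58 and 0.75. The small shift of the family is therefore reported with no direction, and the gene values below are relative to the 75th percentile.

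By gene, with the brightest probe of each, small subunit genes were called higher in 8 of 31 cases in EBF1ΔC (among them Rps3a, Rps4x, Rps7, Rps19, Rps24 and Rps27a) and in 3 of 31 in EBF1wt (Rps19, Rps25 and Rps27a), with 0 called lower. Large subunit genes were called higher in 12 of 43 cases in EBF1ΔC and 11 of 43 in EBF1wt, and Rpl31 was called lower in both and Rpl32 in EBF1wt. Rplp0, Rplp1 and Rplp2 of the P-stalk were not called (-0.01 to 0.37). Together 21 of the 77 subunit genes were called in EBF1ΔC and 16 in EBF1wt, against 63.9% (33.8% higher, 30.1% lower) and 66.3% (35.2% higher, 31.1% lower) of all gene names. The plot of the subunit genes shows them in the order of their EBF1ΔC difference.

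**Figure D2:**
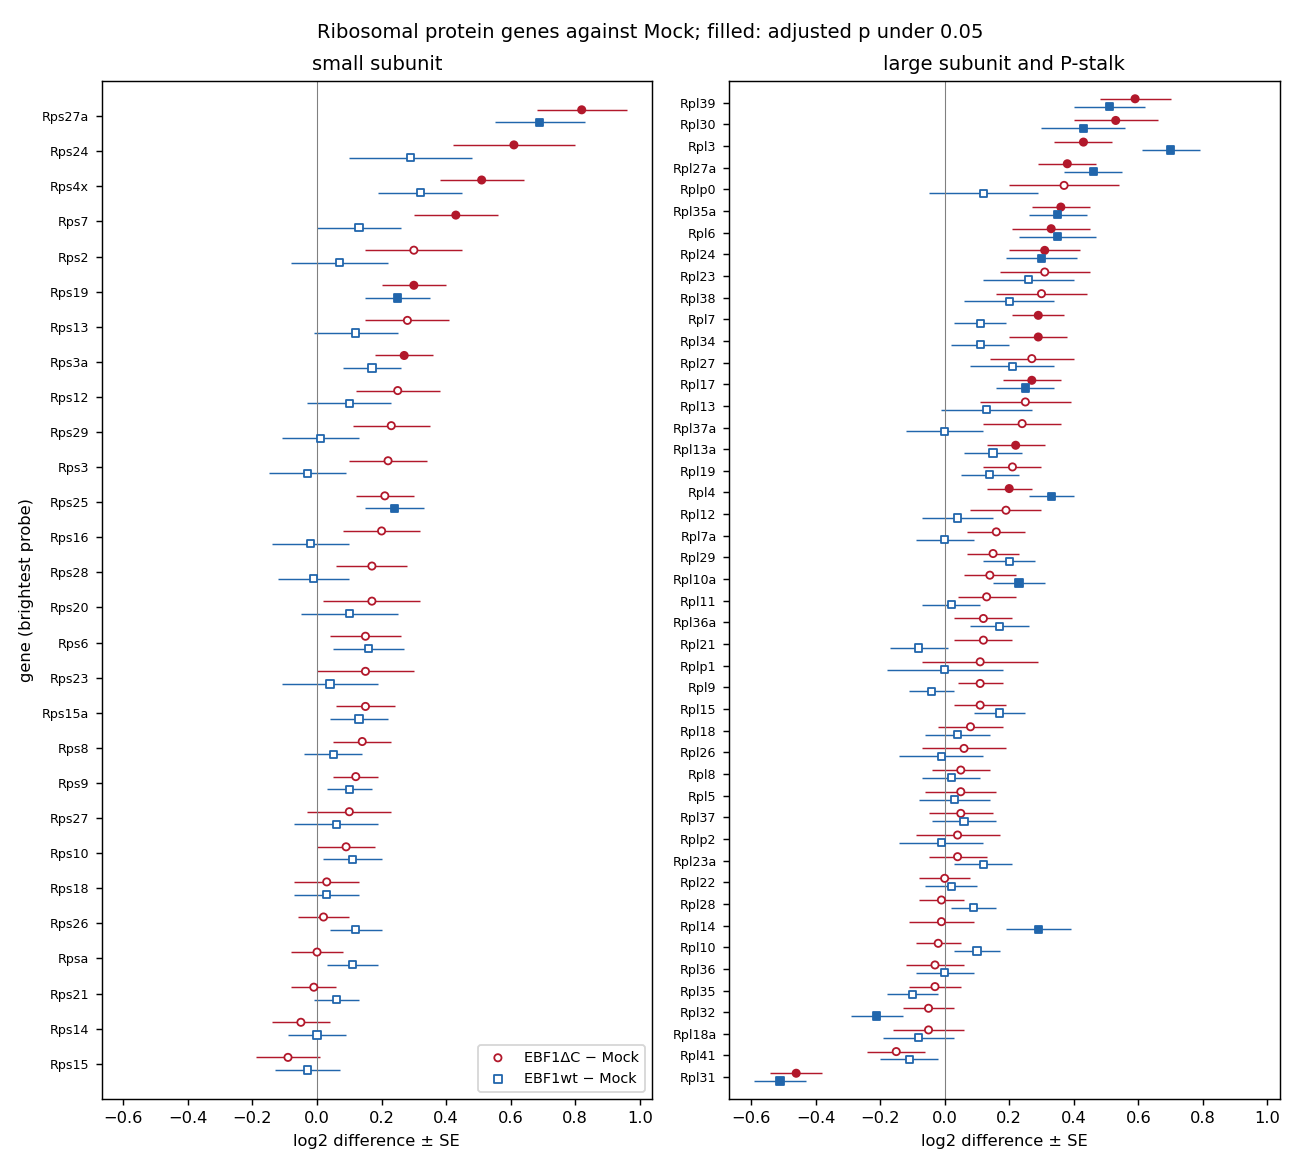
Log2 difference from Mock (x axis, mean ± SE of the limma fit, 3 arrays a group) of the brightest probe of each reported small subunit gene (left) and of each large subunit and P-stalk gene (right), for EBF1ΔC (circles) and EBF1wt (squares). Filled symbols passed the test, and Rps27a, Rpl39 and Rpl3 lie at the upper end and Rpl31 at the lower.

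Rps27a, which encodes ubiquitin fused to a small subunit protein, had the largest rise of the small subunit genes in both comparisons when each gene was taken by its brightest probe. It read 8.14, 8.25 and 8.05 in EBF1ΔC, 7.97, 7.84 and 8.25 in EBF1wt, and 7.15, 7.56 and 7.28 in Mock. All Mock arrays were below all EBF1 arrays, and the group means were 1.76-fold above Mock in EBF1ΔC (limma adjusted p = 0.00108) and 1.61-fold in EBF1wt (adjusted p = 0.00252). Rps19, mutated in Diamond-Blackfan anaemia of humans, rose at both of its probes. The dimmer one read 6.98, 6.91 and 6.91 in EBF1ΔC, 6.91, 6.78 and 6.85 in EBF1wt, and 6.39, 6.28 and 6.22 in Mock (0.64 ± 0.08, adjusted p = 0.00019, and 0.55 ± 0.08, adjusted p = 0.000397), and the brighter one differed by 0.30 ± 0.10 and 0.25 ± 0.10. The brighter probe's EBF1ΔC call was lost without any Mock array and without EBF1ΔC replicate 2 or 3 (0.26 to 0.31), and its EBF1wt call was lost without any array but EBF1wt replicate 2 (0.20 to 0.26, against 0.35 without that array). Of the 2 Rps3a probes the dimmer rose by 0.83 ± 0.12 in EBF1ΔC and 0.74 ± 0.12 in EBF1wt, while the brighter differed by 0.27 ± 0.09 and 0.17 ± 0.09. The first of these was called, but not without Mock replicate 1 or 3 or EBF1ΔC replicate 1 or 2 (0.20 to 0.28), and the second was not called.

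Among the large subunit genes, Rpl3, which encodes a protein near the peptidyl transferase centre, read 8.16, 8.11 and 7.97 in EBF1ΔC, 8.29, 8.27 and 8.49 in EBF1wt, and 7.66, 7.67 and 7.63 in Mock. The groups did not overlap with Mock, at 0.43 ± 0.09 (adjusted p = 0.00319) and 0.70 ± 0.09 (0.000237). With quantile normalization the EBF1ΔC difference was 0.15 and was not called. Rpl39, a small protein of the exit tunnel, read 8.53, 8.54 and 8.47 in EBF1ΔC, 8.44, 8.30 and 8.55 in EBF1wt, and 7.74, 8.12 and 7.91 in Mock (0.59 ± 0.11 and 0.51 ± 0.11, adjusted p = 0.0018 and 0.00387). Rpl31 was lower in both EBF1 groups, with 3.67, 3.76 and 3.88 in EBF1ΔC, 3.75, 3.72 and 3.68 in EBF1wt, and 4.26, 4.21 and 4.20 in Mock (-0.46 ± 0.08 and -0.51 ± 0.08, adjusted p = 0.00105 and 0.000582), and its second, dimmer probe fell by 0.25 and 0.24. Scaled to the array median, Rpl31 turned to 0.09 and 0.20. Rpl32 read 8.98, 8.87 and 8.82 in EBF1ΔC, which overlapped Mock, 8.69, 8.68 and 8.82 in EBF1wt, and 8.91, 8.95 and 8.95 in Mock. Its EBF1wt call (-0.21 ± 0.08, adjusted p = 0.0453) was lost without any Mock array, without EBF1wt replicate 1 or 2, and without EBF1ΔC replicate 2.

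Several genes known for roles outside translation or as references were not called at their brightest probe. Rpl5 differed by 0.05 ± 0.11 in EBF1ΔC and 0.03 ± 0.11 in EBF1wt, Rpl11 by 0.13 ± 0.09 and 0.02 ± 0.09, and Rps14, lost in the 5q- syndrome of humans, by -0.05 ± 0.09 and 0.00 ± 0.09. Rpsa, also known as the laminin receptor, differed by 0.00 ± 0.08 and 0.11 ± 0.08. Rplp0, a common reference gene, read 9.50, 9.62 and 9.13 in EBF1ΔC, 9.03, 9.06 and 9.43 in EBF1wt, and 8.84, 9.09 and 9.22 in Mock at its brightest probe, which overlapped. This probe read 9.50 and 9.43 on the EBF1ΔC and EBF1wt arrays of slide 5, and the other 2 Rplp0 probes stayed between 6.54 and 6.77 and between 8.36 and 8.60 on the 9 arrays. Rpl38, whose loss in mice alters the vertebral pattern, differed by 0.30 ± 0.14 and 0.20 ± 0.14 and was not called, and Rps27 by 0.10 ± 0.13 and 0.06 ± 0.13. The probes of Rpl10 disagreed: the brighter, clone-designed A_52_P171216 differed by -0.02 ± 0.07 and 0.10 ± 0.07 and was not called, and the RefSeq-designed A_51_P495895 rose by 0.39 ± 0.08 (adjusted p = 0.00242) and 0.45 ± 0.08 (adjusted p = 0.00112).

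Of the 4 paralogs kept, Rpl22l1, Rps27l and Rpl36al rose against Mock in both EBF1 groups. Rpl22l1 at its RefSeq-designed probe read 7.28, 7.45 and 7.35 in EBF1ΔC, 7.47, 7.42 and 7.39 in EBF1wt, and 6.71, 6.76 and 6.59 in Mock. The groups were far apart, at 0.68 ± 0.08 (adjusted p = 0.000166) and 0.74 ± 0.08 (0.0001). Rpl22, which in mice represses Rpl22l1, differed by 0.00 ± 0.08 and 0.02 ± 0.08 at its brighter probe, although its dimmer probe rose by 0.62 ± 0.10 and 0.75 ± 0.10. Rps27l, a p53 target, read 6.51, 6.54 and 6.32 in EBF1ΔC, 6.52, 6.65 and 6.57 in EBF1wt, and 6.10, 6.08 and 5.94 in Mock (0.42 ± 0.09 and 0.54 ± 0.09, adjusted p = 0.00402 and 0.001). Rpl36al read 6.01, 5.81 and 5.78 in EBF1ΔC, 5.97, 6.06 and 6.04 in EBF1wt, and 5.55, 5.54 and 5.40 in Mock (0.37 ± 0.09 and 0.52 ± 0.09, adjusted p = 0.00719 and 0.00107). In neither gene did an EBF1 array overlap Mock. Under normexp with quantile normalization the EBF1ΔC differences of Rps27l and Rpl36al were 0.19 and 0.13 and were not called. Rpl7l1 was not called at its brighter probe (-0.08 ± 0.10 and 0.20 ± 0.10), and its dimmer probe rose by 0.27 and 0.39. Between EBF1ΔC and EBF1wt the 4 paralogs differed by -0.28 to -0.06 and none was called. The differences between paralogs and partners were not tested.

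**Figure D3:**
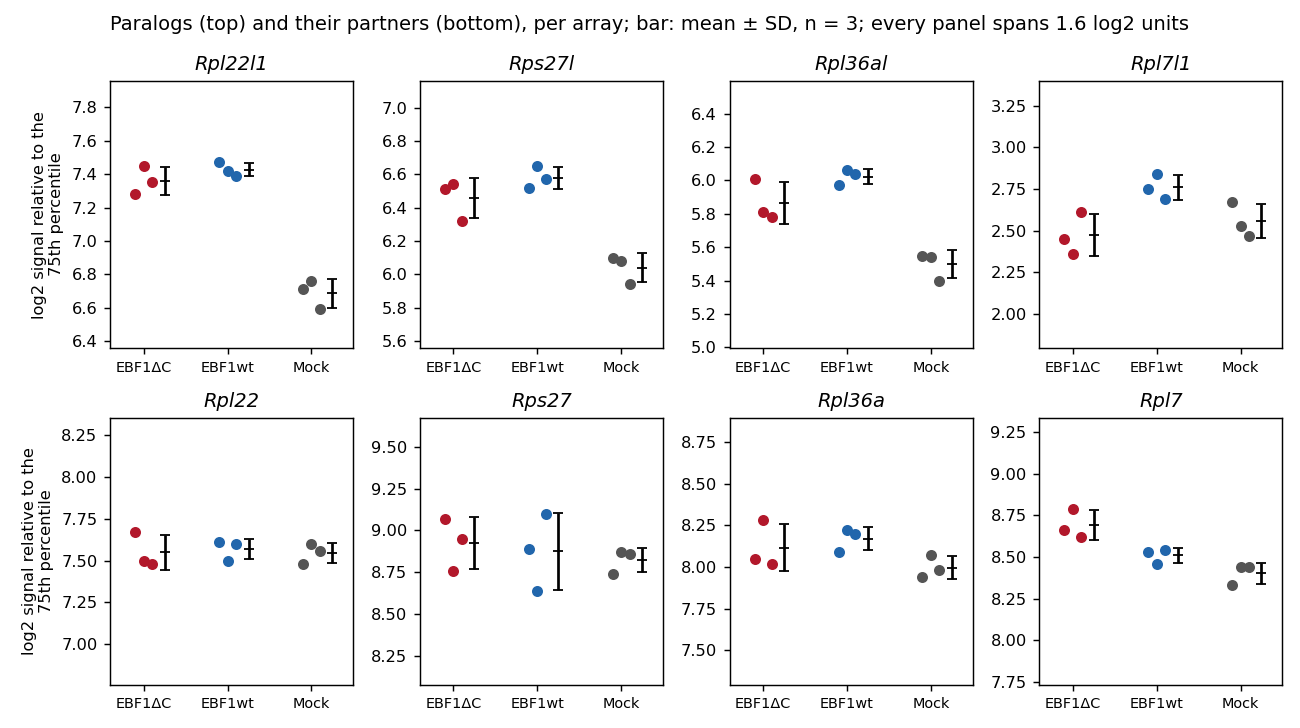
Log2 signal per array (points) and mean ± SD of 3 arrays (bars) in EBF1ΔC, EBF1wt and Mock for the paralogs Rpl22l1, Rps27l, Rpl36al and Rpl7l1 (top) and the partners Rpl22, Rps27, Rpl36a and Rpl7 (bottom), at the brightest probe of each gene. Every panel spans the same range, and the upper 3 panels from the left show both EBF1 groups above Mock while Rpl22 and Rps27 overlap it.

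Rps19bp1, which encodes a binding partner of Rps19 and of the deacetylase SIRT1, rose at both of its probes. The one with the larger change read 1.98, 1.98 and 1.98 in EBF1ΔC, 2.19, 2.12 and 1.97 in EBF1wt, and 1.08, 1.14 and 0.97 in Mock (1.89-fold and 2.04-fold, adjusted p = 4.34e-05 and 2.29e-05).

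Probes of the same gene disagreed more often against Mock than between the EBF1 forms. Calls over all kept probes were also more frequent there, 64.5% and 66.7% against 5.5%. Among the 45 genes with more than 1 kept probe, the differences of a gene's probes spanned more than 1 log2 unit in 11 genes in EBF1ΔC and 12 in EBF1wt, against 1 gene (Rpl36a) between the EBF1 forms. Rpl36a was also among the 12, and a single array set its span, as given below. The same count over all genes was not made, so these counts are not particular to the family. Probes of Rps24 and Rpl22l1 were called in opposite directions in both comparisons with Mock. Of the 119 RefSeq-designed probes 44 rose and 2 fell in EBF1ΔC, and 35 rose and 3 fell in EBF1wt. Of the 19 others 5 rose and 8 fell in EBF1ΔC, and 3 rose and 7 fell in EBF1wt. For member names with kept probes of both designs, 6 of 17 RefSeq-designed probes rose and 0 fell in EBF1ΔC, and 4 and 0 in EBF1wt. Of the 17 others of these names 4 rose and 8 fell in EBF1ΔC, and 3 and 7 in EBF1wt. This was not particular to the ribosomal protein genes: over all gene names with kept probes of both designs, 53.1% of the clone-, tag- or Ensembl-designed probes were called lower and 19.9% higher in EBF1ΔC, and 55.2% and 19.9% in EBF1wt. Of the RefSeq-designed probes of those names 23.9% were lower and 38.4% higher in EBF1ΔC, and 22.8% and 41.1% in EBF1wt.

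Among the called probes reported here by name, those with the largest falls are among the probes printed above. Rps24 A_52_P100002 read -1.40, -1.45 and -1.32 in EBF1ΔC, -1.04, -1.12 and -1.28 in EBF1wt, and 1.00, 1.05 and 1.03 in Mock (-2.41 ± 0.08 and -2.17 ± 0.08, adjusted p = 4.22e-07 and 5.44e-07). The RefSeq-designed Rps24 probe differed the other way, by 0.61 ± 0.19 in EBF1ΔC (called, adjusted p = 0.0227) and 0.29 ± 0.19 in EBF1wt (not called, 0.21). The EBF1ΔC call was lost without Mock replicate 1 or 3 or EBF1ΔC replicate 1 or 2 (0.49 to 0.58). The clone-designed A_52_P537084, at chr14:25315989-25316048, rose by 0.41 ± 0.10 and 0.71 ± 0.10. Mutations of Rps24 cause Diamond-Blackfan anaemia in humans, and its mRNA has alternative 3′ exons. Rps28 A_52_P682465, within the bridged span, read 0.65, 0.94 and 0.60 in EBF1ΔC, 0.69, 0.73 and 0.74 in EBF1wt, and 2.22, 2.57 and 2.69 in Mock (-1.76 ± 0.14 and -1.77 ± 0.14). The other 3 Rps28 probes, 2 of them across that span, differed from Mock by 0.11 to 0.17 and by -0.07 to 0.03.

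Rps13 A_52_P646112 fell by 1.62 ± 0.14 and 1.55 ± 0.14 on the log2 scale, with -0.63, -0.58 and -0.94 in EBF1ΔC, -0.83, -0.56 and -0.55 in EBF1wt, and 0.72, 0.88 and 1.12 in Mock. Its RefSeq-designed probe, which ends 16 bases away, differed by 0.28 ± 0.13 and 0.12 ± 0.13. Rplp2 A_52_P642947 fell to -2.24 or below in EBF1ΔC and -1.71 or below in EBF1wt, against -0.69, -0.43 and -0.26 in Mock (-1.97 ± 0.13 and -1.36 ± 0.13). Rpl11 A_52_P566208 read 0.87, 1.00 and 0.86 in EBF1ΔC, 0.60, 1.29 and 0.89 in EBF1wt, and 1.63, 2.16 and 2.14 in Mock (-1.06 ± 0.20 and -1.05 ± 0.20, adjusted p = 0.00158 and 0.00166), while the probe that bridges its position differed by 0.13 ± 0.09 and 0.02 ± 0.09. In all 3 genes both EBF1 groups lay below Mock, and the Rplp2 probe was lower in EBF1ΔC than in EBF1wt, as given above. Rps12 A_52_P415440, clone-designed, fell in EBF1ΔC (-0.57 ± 0.13, adjusted p = 0.00514) and was not called in EBF1wt (-0.27 ± 0.13). The brighter, RefSeq-designed Rps12 probe A_51_P349435 differed by 0.25 ± 0.13 and 0.10 ± 0.13 and was not called. The clone-designed Rpl22l1 probe read -2.65, -2.89 and -3.16 in EBF1ΔC, -3.09, -2.69 and -3.05 in EBF1wt, and -2.69, -1.89 and -2.12 in Mock, where EBF1ΔC overlapped Mock and EBF1wt came within rounding of it at -2.69. It fell by 0.67 ± 0.22 and 0.71 ± 0.22, a call lost without Mock replicate 2 or 3 in both comparisons, without EBF1ΔC replicate 2 or 3 in the first and without EBF1wt replicate 1 or 3 in the second (-0.67 to -0.50).

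**Figure D4:**
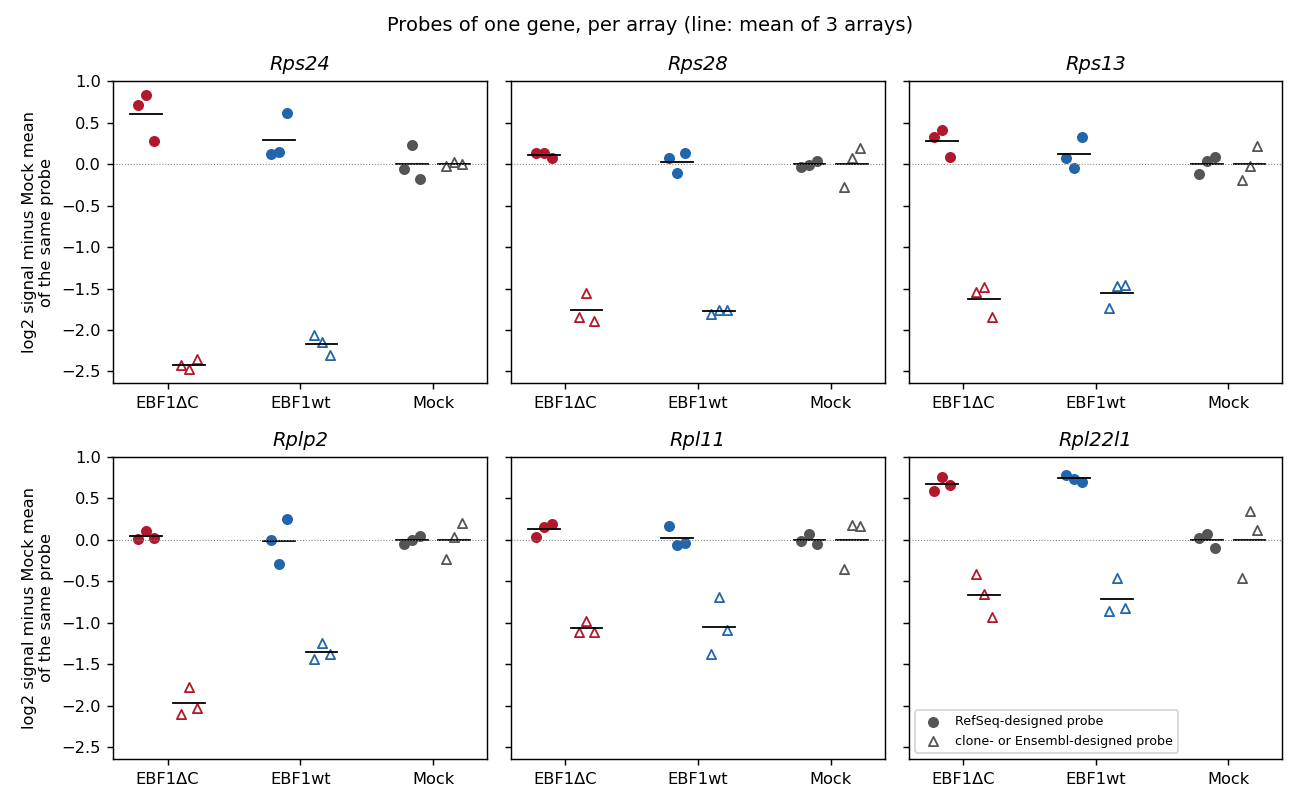
Log2 signal per array minus the Mock mean of the same probe (y axis) in EBF1ΔC, EBF1wt and Mock for a RefSeq-designed probe (filled circles) and a clone- or Ensembl-designed probe (open triangles) of 6 genes; lines are means of 3 arrays. The triangles of both EBF1 groups lie below those of Mock in every gene but Rpl22l1, where EBF1ΔC overlaps Mock, and the mean of the circles lies between -0.01 and 0.74.

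The largest rises, at Rpl30, Rpl7a and Rps21, were at RefSeq-designed probes dimmer than another probe of the same gene. Other such probes were not called, among them Rpsa A_52_P372165 (-0.11 ± 0.08 in EBF1ΔC and 0.11 ± 0.08 in EBF1wt) and Rps25 A_52_P436318 (-0.04 ± 0.10 and 0.10 ± 0.10). Rpl30 A_51_P268914 read 7.50, 7.45 and 6.77 in EBF1ΔC, 6.40, 6.58 and 7.49 in EBF1wt, and 4.95, 5.83 and 4.95 in Mock (3.99-fold and 2.99-fold, adjusted p = 0.0013 and 0.00427), against 0.53 ± 0.13 and 0.43 ± 0.13 for A_52_P543471, the other probe of this large subunit gene. The EBF1wt call of that other probe was lost without Mock replicate 1 or 3 or EBF1wt replicate 3 (0.35 to 0.40). Rpl7a A_52_P548790 read 5.97, 6.04 and 5.46 in EBF1ΔC, 4.92, 5.39 and 5.82 in EBF1wt, and 3.76, 4.52 and 3.80 in Mock (1.79 ± 0.28 and 1.35 ± 0.28), while A_52_P436206, which shares 14 bases with it, differed by 0.16 ± 0.09 and 0.00 ± 0.09. Rps21 A_52_P740562 rose by 1.48 ± 0.24 and 1.17 ± 0.24, against -0.01 ± 0.07 and 0.06 ± 0.07 for A_51_P489959. Arrays of 1 group spread widely at the Rpl30 and Rpl7a probes with the large rises. Rpl30 A_51_P268914 read 6.77 on the EBF1ΔC array and 6.58 on the EBF1wt array of slide 4, and 7.50 and 7.49 on those of slide 5, but the 2 Mock arrays of slide 1 read 4.95 and 5.83. Rpl5 A_52_P82305 rose with less spread, by 0.83 ± 0.11 and 0.93 ± 0.11, and Rpl21 A_52_P653937 by 0.52 ± 0.10 and 0.89 ± 0.10, against 0.12 ± 0.09 and -0.08 ± 0.09 for its brighter probe.

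The RefSeq-designed Rpl29 probes show how close such probes can lie. They share 33 positions on chromosome 9, and their letters differ at 3 of these (in capitals).
Rpl29 A_52_P217069, chr9:106333436-106333495, plus strand: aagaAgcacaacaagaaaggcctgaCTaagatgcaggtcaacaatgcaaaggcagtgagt
Rpl29 A_52_P505977, chr9:106333409-106333468, plus strand: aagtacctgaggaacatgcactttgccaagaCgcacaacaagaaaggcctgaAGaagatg
The first rose by 0.80 ± 0.21 in EBF1ΔC and 0.57 ± 0.21 in EBF1wt, and the second by 0.29 ± 0.09 in EBF1ΔC, while its 0.21 ± 0.09 in EBF1wt was not called.

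A single array set the value of 2 probes. Rpl36a A_51_P283920 read 2.68 on EBF1wt replicate 2 and between 8.13 and 8.38 on the other 8 arrays, whereas A_52_P197926, which shares 40 bases with it, read 8.22 on that array. The difference between EBF1ΔC and EBF1wt was 1.77, and -0.11 without that array. Rps4x A_52_P780667 read 8.01 on Mock replicate 2 and between -4.26 and -2.34 on the others, which gave -4.51 in EBF1ΔC and -4.63 in EBF1wt, and -1.05 and -1.17 without it. Neither probe was called.

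Other lists of translation genes, each gene taken by its brightest probe, were called against Mock in the following shares in EBF1ΔC and in EBF1wt, against 63.9% and 66.3% of all gene names: 68.4% and 75% for mitochondrial ribosomal proteins, 69.4% and 77.8% for initiation factors, 65.8% and 73.7% for ribosome assembly, 76.5% and 88.2% for mTORC1 and S6 kinase control, and 33.3% and 44.4% for elongation factors. Mitochondrial ribosomal protein genes (76), which build the separate ribosome of mitochondria, rose in 51 cases and fell in 1 in EBF1ΔC, and rose in 56 and fell in 1 in EBF1wt, with medians of 0.39 and 0.47. Among them Mrpl15 rose by 1.14 ± 0.11 and 1.33 ± 0.11, Mrps28 by 1.13 ± 0.09 in both, and Mrps18a by 0.93 ± 0.11 and 1.12 ± 0.11. Initiation factors (36) rose in 20 cases and fell in 5 in EBF1ΔC, and rose in 25 and fell in 3 in EBF1wt; Eif2s2, a subunit of eIF2, rose by 0.71 ± 0.11 and 0.66 ± 0.11, Eif3c by 0.69 ± 0.09 and 0.70 ± 0.09, and Eif2b3 fell in EBF1ΔC (-1.06 ± 0.33). Ribosome assembly and RNA polymerase I genes (38) were called higher in 19 and lower in 6, and 25 and 3; Nmd3, which exports the large subunit, rose by 1.00 ± 0.12 and 1.16 ± 0.12, and Taf1d, part of the polymerase I factor SL1, fell by 2.02 and 1.74 on the log2 scale. Of 17 mTORC1 and S6 kinase genes 11 were called higher and 2 lower, and 13 and 2, with Rps6ka1 at -2.34 ± 0.13 and -2.26 ± 0.13 and Mtor at 1.27 ± 0.10 and 1.25 ± 0.10. Elongation factors (9) were called higher in 3 and 4 and lower in 0; Eef2k, the kinase that inactivates eEF2, rose by 1.76 ± 0.11 and 1.44 ± 0.11. Fau and Gnb2l1, which also encode ribosome proteins but under other names, were not called in any comparison. Differences between the lists were not tested.

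Between EBF1ΔC and EBF1wt, where 6.35% of all gene names were called, the calls in these lists were 1 lower (Mrps6, -0.43 ± 0.10) of 76 mitochondrial ribosomal protein genes, 1 lower (Pabpc4, -0.49 ± 0.10) of 36 initiation factors, 1 lower (Pdcd4, an inhibitor of eIF4A, -1.09 ± 0.17) of 17 mTORC1 genes, and 4 lower of 38 assembly genes, among them Myc (-1.49 ± 0.22, adjusted p = 0.00891) and Polr1b (-0.65 ± 0.14, adjusted p = 0.0324), and 0 of 9 elongation factors. Myc is a transcription factor known to raise ribosome production.

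**Figure D5:**
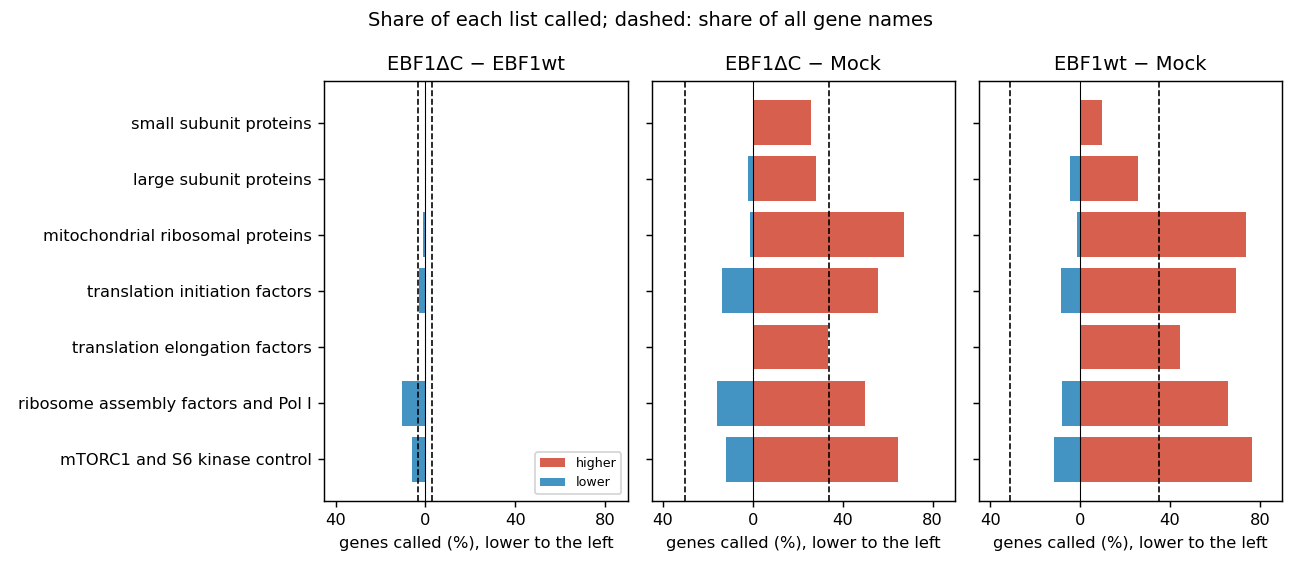
Share of the tested genes of each list (x axis, percent) called higher (right) and lower (left) at the brightest probe of each gene, for EBF1ΔC minus EBF1wt, EBF1ΔC minus Mock and EBF1wt minus Mock. Dashed lines are the shares over all gene names, and the cytosolic subunit bars stay inside them against Mock while mitochondrial ribosomal proteins exceed the upper one.

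The promoter windows of RefSeq (GRCm38.p6), from 250 bases before to 50 after the annotated start, were at hand for 57 of the 77 subunit genes. The EBF motif TCCCNNGGGA, searched on both strands, lay in 0 of 57, against 1.06% of all 27025 genes with a window. The E-box CACGTG, a palindrome bound by MYC and others, lay in 6 of 57 (Rpl13a, Rpl14, Rpl19, Rpl23, Rpl34 and Rps19), against 8.09%. A C followed by at least 4 pyrimidines within 5 bases of the start, on the strand of the gene, was found in 27 of 57 (47.4%), against 21.2%. These matches describe letters in a window and not sites.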

How the data were processed

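Total RNA of 9 samples was labelled with Cy3 and read on 9 one-colour Agilent mouse arrays. Per the file headers, the deposited intensity of each spot is Feature Extraction 10.5.1.1 processed signal, background-subtracted and not normalized between arrays, while the submitters' processing notes name version 9.1. The deposited log2 values of the authors, whose normalization is not given in the sources used here, correlated at r = 0.999 to 1 across probes with normexp and quantile-normalized values and served as an alternative. One label calls the gene transfer transfection, and the source name of EBF1wt replicate 3 omits tamoxifen, which its description has.

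Of 45018 spots an array, 43379 were no controls and held 41174 probes. Scanner outlier spots were left out (73 to 163 an array), spots of a probe averaged, and log2 intensity set against each array's 75th percentile. A probe was kept where some group had it well above background on each of its 3 arrays (22357). The 9 arrays entered a single limma 3.58.1 model (R 4.3.3, tables read with version 1.17.8 of the data.table package) with a mean per group and 6 residual degrees of freedom, tested on simulated data first; tests are moderated, two-sided, and Benjamini-Hochberg adjusted over all kept probes. A probe was called at an adjusted p under 0.05. With several probes, a gene was represented by its brightest one, by the mean of all arrays. The number of arrays limits the precision.

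Gene names are those of the files, and all 86 member names were found among RefSeq's symbols or synonyms. The members and lists were chosen with earlier results of these data known. Named genes were, per comparison and direction, the 8 member genes with the largest called difference among probes well above background on all 6 arrays compared, a preset group of P-stalk, paralog and well-known members, genes with probes called in opposite directions, and up to 3 called genes of each other list; further members named for their probe contrasts (Rpl29, Rpl36a, Rps4x) were chosen after their values were seen. The alternatives are other background corrections, scalings, filters, blocks, weights, probe rules and thresholds, and leaving out arrays. A few members and sequences are not reported here by name.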

Additional observations from a re-analysis of the deposited data

How the results depend on the processing

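Counts of called ribosomal protein probes are given in the order EBF1ΔC against EBF1wt, EBF1ΔC against Mock and EBF1wt against Mock (2, 59 and 48 as reported), and likewise the median differences (0.02, 0.16 and 0.12). Over all kept probes 5.5%, 64.5% and 66.7% were called as reported, with medians of 0, 0.04 and 0.04. From here on, values in brackets are the share or median over all probes or genes tested in the same setting. Scaling to the array median gave counts of 0, 127 and 132 (2.88%, 70.7% and 76%) and medians of -0.14, 0.71 and 0.82 (-0.16, 0.58 and 0.75). Quantile normalization gave medians of -0.05 and -0.04 against Mock (0.08 in both). Normexp with quantile normalization gave a count of 0 between the EBF1 forms (6.04%). Its median for EBF1ΔC against Mock was 0.02 (0.06), which was 0.01 (0.05) with the authors' values. Higher and lower calls against Mock under normexp were 33 and 16 in EBF1ΔC (58.5% in either direction) and 31 and 9 in EBF1wt (59.6%). With the authors' values they were 32 and 20 in EBF1ΔC (57.5%) and 31 and 9 in EBF1wt (58.3%). Taking 1 probe a gene gave 0, 26 and 21 (7.2%, 64.1% and 66.5%), and at least 2-fold 0, 10 and 10 (1.97%, 22.3% and 23.4%). For the first and second comparison, no filter gave 1 and 38 (1.19% and 33.4%). The mean of a gene's probes gave 1 and 39 (7.03% and 65.4%), and an adjusted p under 0.01 gave 1 and 34 (1.59% and 49.3%). Between the EBF1 forms, slide as a block gave 0 (0.344%) and RefSeq-designed probes alone 0 (5.5% of all kept probes). A fit of only the 2 groups gave 1 (2.17%), and leaving out slide 4 gave 1 (4.68%). The RefSeq-designed set and slide 4 were chosen after seeing the data. Leaving out 1 array at a time gave counts of 1 to 2, 38 to 60 and 34 to 48 (2.46% to 4.47%, 56% to 66.1% and 58.5% to 67.3%). The medians were -0.02 to 0.05, 0.14 to 0.23 and 0.12 to 0.14.

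Among the named probes, differences that changed sign and were called in either setting arose with scaling. Each value here is at the brightest probe of its gene, and not at the dimmer probes with large falls or rises described above. For EBF1ΔC against Mock, quantile normalization gave Rpsa -0.29 and Rpl22 -0.32, and median scaling gave Rpsa 0.55, Rpl7l1 0.46, Rpl22 0.55, Rpl32 0.50, Rpl10 0.52, Rps21 0.53, Rpl31 0.09 and Rps14 0.50. For EBF1wt against Mock, quantile normalization gave Rpl22 -0.23, normexp gave Rpl7a 0.21 and the authors' values 0.19, and median scaling gave Rpl7a 0.70, Rpl21 0.63, Rps28 0.70, Rpl32 0.50, Rplp2 0.69, Rpl31 0.20, Rplp1 0.71 and Rps14 0.70. The cause was not tested. The replicate numbers did not pair the samples (correlations of deviations from -0.136 to 0.132). With the replicate block the counts were 2, 49 and 40, against 3.22%, 62.4% and 65.1% of all kept probes. No spot of a member was saturated, so leaving out saturated members changed nothing.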
